A study of Homo sapiens with 6 samples.

Results

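The MYC, MAX and MXD network is a group of transcription factors that was taken here as 10 genes, MYC, MYCL, MYCN, MAX, MXD1, MXD3, MXD4, MXI1, MNT and MGA. The genes were chosen by name, and all 10 symbols matched an Ensembl identifier among the 58302 genes of each count file. MAX is the common partner. It pairs with MYC proteins to activate genes through a DNA motif called the E-box, while MXD proteins, MXI1, MNT and MGA pair with MAX in their place and recruit corepressors. In breast cancer and many other tumors, MYC is often amplified or overexpressed, and the balance of MYC against these antagonists is thought to set the output of shared target genes.

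The study used RNA-seq to ask how the lncRNA Smyca, annotated as MIR23AHG, shapes the transcriptome of MDA-MB-231, a human breast cancer cell line of mesenchymal/basal type. The control group was 3 libraries from cells expressing control shRNA, and the other group was 3 libraries from cells expressing shRNA #1 against Smyca, called Smyca knockdown below. A single shRNA represents the knockdown, so effects of its sequence and of the loss of Smyca cannot be told apart. Total read counts were 16501085, 15560192 and 14999307 in control replicates 1, 2 and 3 and 15714911, 16388020 and 15788258 in the knockdown replicates. The study calls its replicates biological, but how their cultures were separated is not given in the sources used here, so p-values measure the spread between these libraries.

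Smyca itself was measured first, as a check of the labels. It was at 25.0, 19.5 and 22.0 normalized CPM (counts scaled to library size with TMM, which corrects for library composition) in the control and at 10.5, 6.97 and 5.61 in the knockdown. Every control library was above every knockdown library. Its log2 fold change, control over knockdown throughout, was 1.53 with a standard error (SE) of 0.26, for a Benjamini-Hochberg adjusted p of 0.111 in edgeR's quasi-likelihood test.

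The libraries did not group by label alone. Over all tested genes, the correlation of log2(normalized CPM + 1) was 0.991 between control replicates 1 and 2 and 0.991 between knockdown replicates 1 and 2. Control replicate 3 correlated less with control replicate 1 (0.957) and control replicate 2 (0.966) than with knockdown replicate 3 (0.974), and control replicate 2 in turn correlated more with knockdown replicate 1 (0.974) than with control replicate 3. These are correlations across genes, which are not independent replicates. In addition, the deposited FPKM column of control replicate 2 did not follow its count column. The reads behind that FPKM column correlated with the counts of control replicate 3 at 0.993 and with the counts of its own library at 0.952 (log2(reads + 1), 15068 genes). Which column belongs to the label is not known. The count column was used throughout, and values from the reads recovered from the other column are given beside some results. In bulk RNA, fewer cells with a transcript and less of it per cell cannot be told apart.

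Marker genes went partly against the label, so the libraries are referred to below as labelled MDA-MB-231. Of 12 mesenchymal/basal markers, 11 had a mean of at least 1 normalized CPM, with moesin (MSN) the most abundant. Their summed level was 1743, 1384 and 890.4 in the control replicates and 877, 964 and 1225 in the knockdown replicates. MSN was the largest single part of this sum in every library. Of the 11 tested genes of the list, 10 were higher in the control, 7 had an unadjusted p under 0.05, against 19.2% of all tested genes, edgeR called 0, and DESeq2 called 3 (VIM, PLAU and FOSL1), against 5.64%. VIM, the mesenchymal intermediate filament vimentin, was at 305, 200.3 and 148 normalized CPM in the control and 71.2, 105 and 130 in the knockdown, each control library above each knockdown library, and the secreted matrix protein gene SPARC was below 1 in every library.

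Keratin 8 (KRT8), an epithelial filament gene, was by contrast at 4249 to 7408 normalized CPM, the most abundant of 12 luminal breast markers. That list summed to 5963, 6175 and 5860 in the control and 6498, 7914 and 8933 in the knockdown, a sum made up mostly of KRT8. Of the 8 tested genes of the list, 4 were higher and 4 lower in the control, 1 had an unadjusted p under 0.05, against 19.2% of all tested genes, and edgeR and DESeq2 each called 0. ESR1 and FOXA1 were near 0, and PGR had 0 counts in every library. Of 12 intestinal epithelial markers, 5 had a mean of at least 1, with summed levels of 660.5, 656 and 390.0 in the control and 826, 817 and 667 in the knockdown. VIL1, which encodes the brush-border protein villin, led them at 220 to 501, and the nuclear receptor HNF4A was at 65.4 to 194, while CDX1 had 0 counts in every library. Of the 6 tested genes of this list, 2 were higher and 4 lower in the control, 2 had an unadjusted p under 0.05, against 19.2% of all tested genes, and edgeR and DESeq2 each called 0. Those 2 were VIL1, lower in the control, and LGALS4, higher in the control at 1.05, 1.17 and 1.34 normalized CPM against 0.698, 0.570 and 0.330 in the knockdown.

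Leukocyte and stromal markers summed to at most 10.4 in any library, LUM was the most abundant of them, and PTPRC and HBB had 0 counts in every library. MSN, SPARC, ESR1 and FOXA1 are named after their values were seen. The part of these marker differences in the results below was not tested.

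Of the 10 network genes, 9 had enough counts to be tested, MYCN being the exception. The study's criteria are a control/knockdown ratio not below 1.5 or not above 0.66, with an adjusted p under 0.05. In edgeR (quasi-likelihood, p adjusted after Benjamini-Hochberg across 15075 genes), 0 of the 9 met them, against 4 of all tested genes (0.0265%), while DESeq2's Wald test called 2, MXD1 and MXD3, against 5.64% of all tested genes. With DESeq, which was not run here, the study reported many more genes by these criteria than edgeR or DESeq2 called here. At an unadjusted p under 0.05 there were 3 of 9, or 33.3%, namely MXD1, MXD3 and MGA, against 19.2% of all tested genes. MXD1 and MXD3 were higher in the control, as were 10.4% of all tested genes at this p, and MGA was lower, as were 8.74%. The groups did not overlap in the same 3 genes, against 24.8% of all tested genes.

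**Figure D1:**
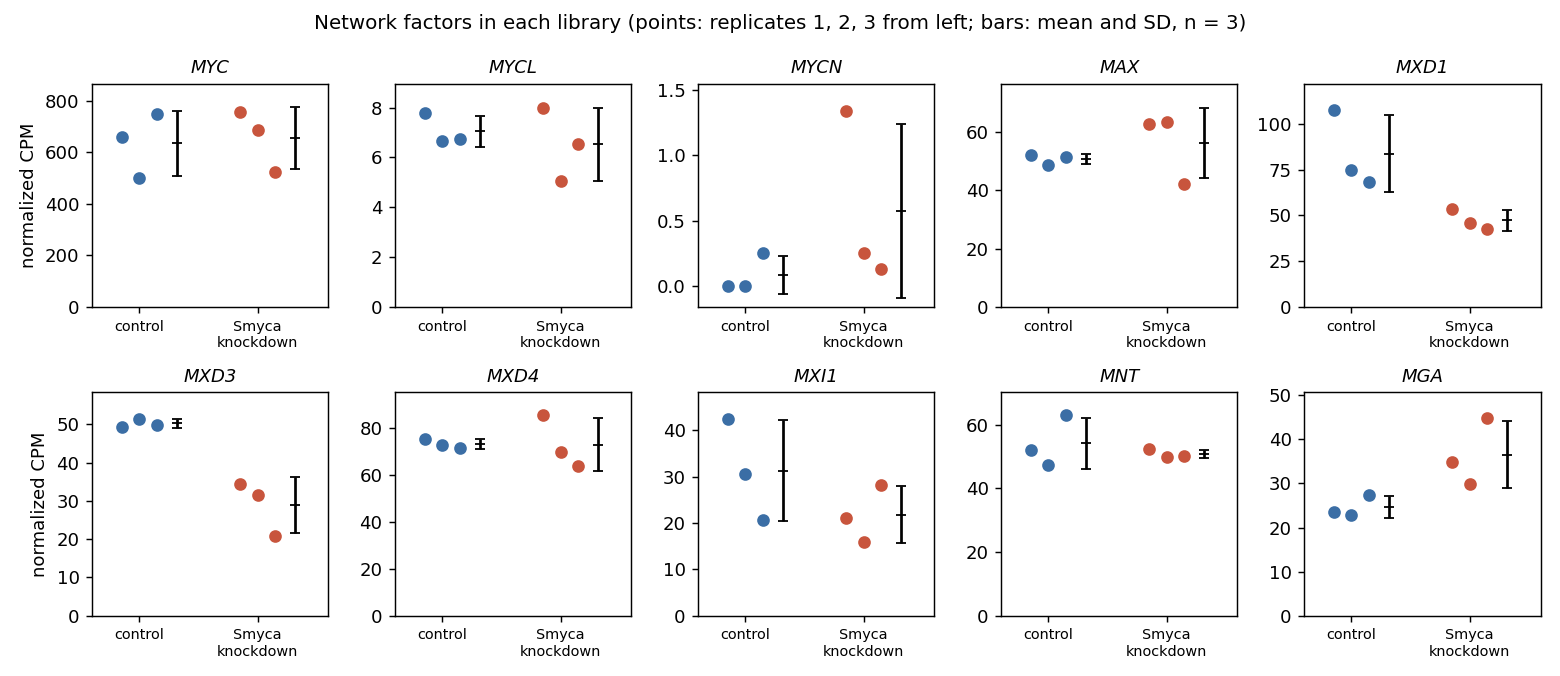
Normalized CPM (y axis, from 0, or just below it for MYCN, whose SD bar passes 0) of the 10 network genes in 3 control and 3 Smyca knockdown libraries. Points are replicates 1, 2 and 3 from the left and bars give the mean and SD (n = 3); all control points lie above all knockdown points in MXD1 and MXD3 and below them in MGA.

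MYC, the main activator, spans 127735434 to 127742951 on the plus strand of chromosome 8 (GRCh38) and was by far the most abundant network transcript. It was at 658, 499 and 746 normalized CPM in the control replicates and at 755, 685 and 524 in the knockdown replicates. The groups overlapped fully, with both a low and a high library on each side. Its log2 fold change was -0.05 (SE 0.20, 95% interval -0.51 to 0.42), a sign that turned with total counts in place of TMM (0.020), without control replicate 2 (0.10), without knockdown replicate 1 (0.062) and with the recovered reads of control replicate 2 (0.13). In those recovered reads MYC was at 767 normalized CPM, where the count column gives 499. CASC11 overlaps MYC on the other strand.

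MYCL, a family member best known from small cell lung cancer, was low, at 7.78, 6.65 and 6.72 normalized CPM in the control and 8.0, 5.07 and 6.54 in the knockdown. The groups overlapped. Its log2 fold change of 0.11 (SE 0.26) turned to -0.050 without knockdown replicate 2. MYCN, the neuroblastoma oncogene, had 0, 0 and 4 counts in the control and 21, 4 and 2 in the knockdown. A count of 0 allows up to 0.185 normalized CPM in each of control replicates 1 and 2 (3 counts, counting error only), and most knockdown counts came from knockdown replicate 1, so no fold change is given.

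MAX, the partner that MYC and its antagonists share, was at 52.1, 48.8 and 51.5 normalized CPM in the control and 63.0, 63.5 and 42.3 in the knockdown. Knockdown replicates 1 and 2 were above the control and knockdown replicate 3 below it. This gave a log2 fold change of -0.15 (SE 0.18, 95% interval -0.56 to 0.27). MAX overlaps FNTB on the other strand, and since the strand setting of the counting is not given in the sources used here, its counts may hold reads of FNTB.

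Among the antagonists, MXD1 and MXD3 were the furthest apart between the groups. MXD1, formerly MAD1, rises when many cell types differentiate and stop dividing. It was at 108, 75.0 and 68.2 normalized CPM in the control and 53.5, 46.0 and 42.5 in the knockdown. Control replicate 1 stood highest, and the other control libraries were still above each knockdown library. The means were 83.6 ± 21.0 and 47.3 ± 5.65 (SD, n = 3 each).

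The MXD1 difference was a log2 fold change of 0.82 (SE 0.20, 95% interval 0.36 to 1.28), or 1.77-fold (edgeR quasi-likelihood, Benjamini-Hochberg adjusted p = 0.122). No exact permutation test was run for single genes, since with 3 against 3 libraries its two-sided p cannot go below 0.1. MXD1 overlaps SNRNP27 on its own strand (chromosome 2, 69897688 to 69942945, plus strand), so that reads in the shared stretch are uncertain.

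MXD3, an antagonist that is unusual in being expressed in dividing cells, was at 49.4, 51.5 and 49.8 normalized CPM in the control and 34.5, 31.5 and 20.7 in the knockdown. The control libraries were nearly equal, and the spread lay in the knockdown, where replicate 3 was lowest. The means were 50.2 ± 1.12 and 28.9 ± 7.23 (SD, n = 3 each). MXD3 thus had a log2 fold change of 0.80 (SE 0.20, 95% interval 0.34 to 1.25), or 1.74-fold (edgeR quasi-likelihood, Benjamini-Hochberg adjusted p = 0.124). MXD3 (chromosome 5, 177301461 to 177312757, minus strand) overlaps RAB24 on its own strand and PRELID1 on the other, and its counts share the same uncertainty.

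The calls of MXD1 and MXD3 turned on the test and on control replicate 3. With DESeq2's Wald test (Benjamini-Hochberg) both were called, with adjusted p = 0.0138 for MXD1 and 0.0196 for MXD3, beside 5.64% of all tested genes. Without control replicate 3, edgeR's quasi-likelihood test called both (Benjamini-Hochberg adjusted p = 0.0209 and 0.0492), beside 10.5% of all tested genes. With no filter beyond 1 count, edgeR's quasi-likelihood test also called both (Benjamini-Hochberg adjusted p = 0.0173 and 0.0285), beside 3.01% of the genes then tested. Over 13 alternatives in edgeR or DESeq2 the Benjamini-Hochberg adjusted p ranged from 0.0138 to 0.440 for MXD1 and from 0.0196 to 0.440 for MXD3, and both genes were higher in the control in each.

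MXI1, also called MXD2, is an antagonist known as a target of hypoxia-inducible factors (HIF). It was at 42.5, 30.6 and 20.7 normalized CPM in the control and 21.1, 16.0 and 28.2 in the knockdown. Control replicates 1 and 2 were the highest libraries, while control replicate 3 lay within the knockdown range. A log2 fold change of 0.52 (SE 0.30, 95% interval -0.15 to 1.20) resulted, and it was 0.24 without control replicate 1. In its recovered reads, control replicate 2 was at 20.0 normalized CPM, for a log2 fold change of 0.34.

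MXD4 and MNT differed little. MXD4 was at 75.3, 72.5 and 71.4 normalized CPM in the control and 85.2, 69.6 and 63.6 in the knockdown. The control libraries lay within the knockdown range. Its log2 fold change of 0.0053 (95% interval -0.34 to 0.35) turned to -0.0097 with RLE factors in place of TMM, and it turned without control replicate 1 (-0.014), knockdown replicate 2 (-0.032) or knockdown replicate 3 (-0.092). MNT, a broadly expressed MYC antagonist, was at 52.1, 47.4 and 62.9 in the control and 52.2, 49.9 and 50.0 in the knockdown. Control replicate 3 stood highest and control replicate 2 lowest. Its log2 fold change of 0.09 (95% interval -0.25 to 0.44) turned to -0.034 without control replicate 3.

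MGA, a large protein that binds MAX and is a scaffold of the noncanonical Polycomb complex PRC1.6, went the other way. It was at 23.6, 22.8 and 27.5 normalized CPM in the control and 34.8, 29.9 and 44.9 in the knockdown. The groups did not overlap, although control replicate 3 and knockdown replicate 2 lay close together. The means were 24.6 ± 2.52 and 36.5 ± 7.65 (SD, n = 3 each). MGA had a log2 fold change of -0.57 (SE 0.19, 95% interval -1.0 to -0.14), a ratio of 0.674 that misses the ratio criterion (edgeR quasi-likelihood, Benjamini-Hochberg adjusted p = 0.169). In its recovered reads control replicate 2 was at 29.6 normalized CPM, close to knockdown replicate 2, for a log2 fold change of -0.45. Without control replicate 2, MGA no longer had an unadjusted p under 0.05 in edgeR's quasi-likelihood test.

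**Figure D2:**
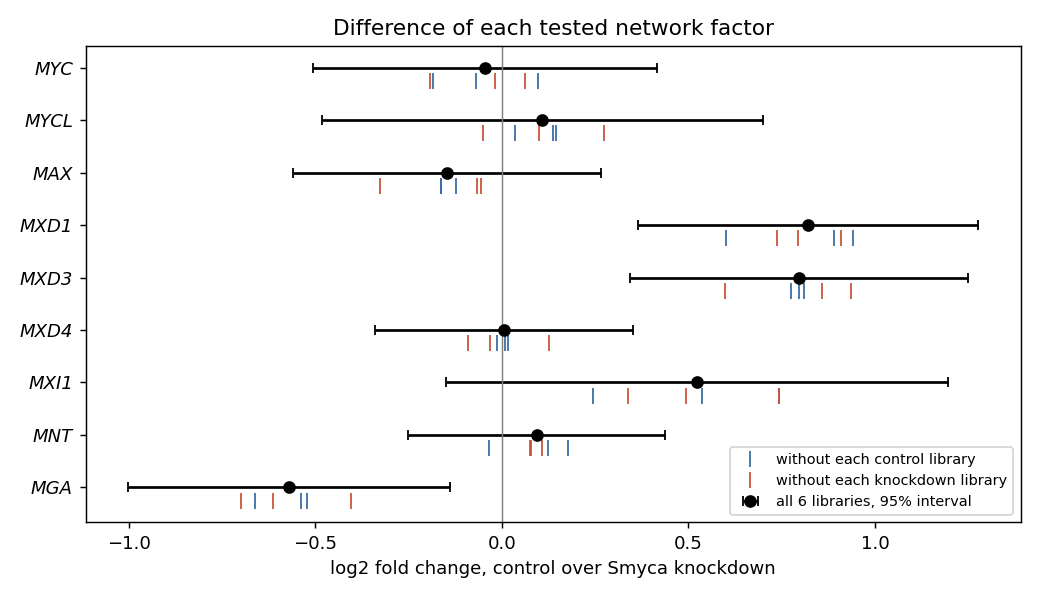
Log2 fold change, control over Smyca knockdown (x axis), of the 9 tested network genes. Black points and lines give the estimate and 95% interval from all 6 libraries, and short marks give the estimate with each control (blue) or knockdown (red) library left out; the intervals of MXD1, MXD3 and MGA do not include 0.

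Levels can be compared between genes only per length, so normalized CPM were divided by the gene length that the deposited counts and FPKM imply, which gives normalized FPKM. In the control, MYC was at 447 ± 88.0 normalized FPKM, MAX at 46.7 ± 1.63 and MNT at 40.4 ± 5.94 (SD, n = 3 each). MXD3, MXD4 and MXD1 followed at 38.1 ± 0.847, 36.6 ± 0.998 and 35.6 ± 8.95, and MXI1 was at 19.9 ± 6.96 (SD, n = 3 each). From MAX to MXD1, neighbors in this order overlapped between libraries, whereas MYC stood far above them. MGA (4.41 ± 0.451) and MYCL (3.85 ± 0.345) overlapped at the low end, above MYCN.

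In the knockdown the order was MYC, MAX, MNT and MXD4, at 461 ± 83.7, 51.7 ± 11.1, 37.9 ± 0.966 and 36.4 ± 5.58 normalized FPKM (SD, n = 3 each). MXD3 and MXD1 were now at 21.9 ± 5.49 and 20.1 ± 2.41, each of their libraries below each library of MXD4. MXI1 was at 13.9 ± 3.92 (SD, n = 3). MAX, MNT and MXD4 overlapped between libraries. These values describe the libraries and were not tested as an order.

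**Figure D3:**
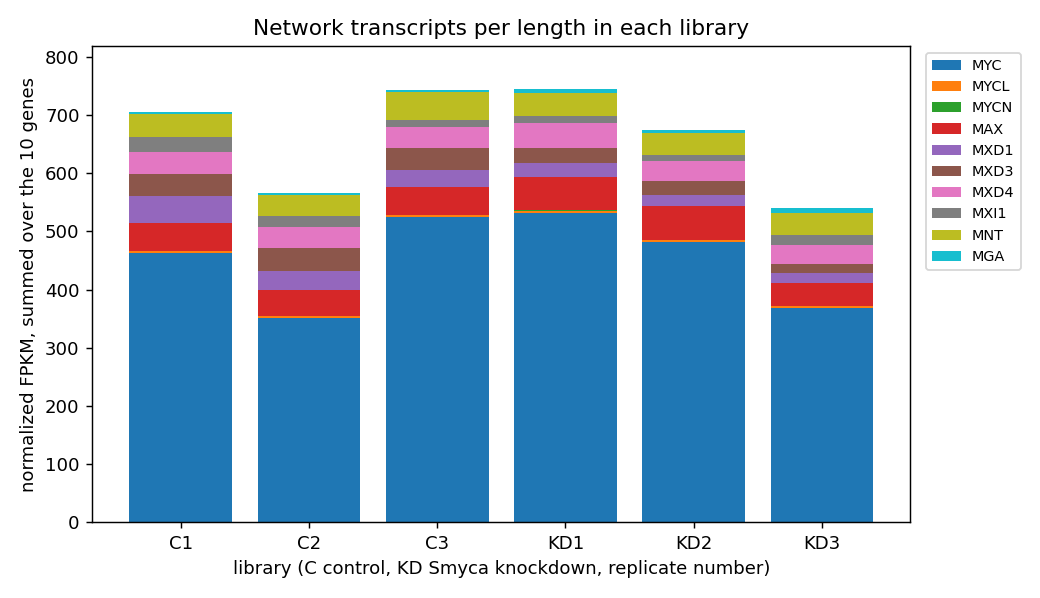
Normalized FPKM (y axis, from 0) of the 10 network genes, stacked, in each control (C) and Smyca knockdown (KD) library. MYC holds 62.1% to 71.5% of each bar.

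MYC held 65.5%, 62.1% and 70.6% of the summed level of the 10 genes in the control replicates and 71.4%, 71.5% and 68.2% in the knockdown replicates. Control replicate 3 lay within the knockdown range, and with its recovered reads control replicate 2 was at 71.6%, the highest of the 6 libraries. The 6 antagonists together were at 191, 166 and 168 normalized FPKM in the control and 150, 131 and 129 in the knockdown. MXD1 and MXD3 made up 43.6%, 42.7% and 39.9% of this antagonist sum in the control and 32.6%, 33.2% and 26.2% in the knockdown.

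The ratio of MYC to the antagonist sum was 2.42, 2.11 and 3.13 in the control and 3.54, 3.68 and 2.86 in the knockdown. The groups overlapped through control replicate 3 and knockdown replicate 3. With its recovered reads, the ratio of control replicate 2 was 3.26, so that only control replicate 1 was then below the knockdown. These sums are transcript levels and say nothing of protein.

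The promoters of the network genes were searched on both strands for 5 motifs, which were chosen after the values and the promoter sequences were seen. RefSeq promoter entries (GRCh38.p14) matched 9 of the 10 genes, with 14 entries in all, and MYC had no entry in the table used here. The E-box CACGTG occurred within 250 bases before the start site in 2 of the 14 entries, of MXD4 and MNT, and in 6.34% of all 35116 entries. The AP-1 motif TGACTCA, or TGAGTCA on the other strand, occurred in 1 entry, of MXD3, and in 4.20% of all entries. The HIF core ACGTG, which the E-box contains, occurred in 5 of the 14 entries (of MAX, MXD4, MXI1, MNT and MGA) and in 18.5% of all entries. The SMAD motifs GTCTAGAC and GTCTGTCT occurred in 0 of the 14 entries, and in 0.182% and 1.02% of all entries. A match is a description and not a binding site. The E-box and AP-1 windows are shown on the minus strand, the strand of these genes, with the motif in capitals.
MXD3, chr5:177312798-177312858: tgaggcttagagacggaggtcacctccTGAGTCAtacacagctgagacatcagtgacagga
MXD4, chr4:2262315-2262359: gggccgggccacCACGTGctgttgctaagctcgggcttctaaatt
MNT, chr17:2401221-2401280: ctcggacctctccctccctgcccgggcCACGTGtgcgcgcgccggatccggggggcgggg

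The genes that work with the network were described by lists. The median log2 fold change of all 15075 tested genes was 0.04, and 53.4% of them were higher in the control. For the 9 tested network genes the median was 0.09, with 6 higher and 3 lower in the control. In the parallel branch of MLX, which pairs with MLXIP and the glucose-responsive MLXIPL, 1 of 3 genes was higher in the control, 0 of 3 had an unadjusted p under 0.05, against 19.2% of all tested genes, and edgeR and DESeq2 each called 0. The largest difference there was MLXIPL, with a log2 fold change of 0.56 (SE 0.35).

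MYC coactivators, the chromatin and elongation factors that MYC recruits, had a median log2 fold change of -0.29, 14 of 15 were lower in the control, and 6 had an unadjusted p under 0.05, all 6 lower in the control, as were 8.74% of all tested genes. HCFC1, a chromatin cofactor that binds MYC, was at 223, 236 and 244 normalized CPM in the control and 361, 471 and 420 in the knockdown. Each knockdown library was above each control library. HCFC1 had a log2 fold change of -0.83 (SE 0.15; edgeR quasi-likelihood, Benjamini-Hochberg adjusted p = 0.111). The acetyltransferase gene CREBBP followed with -0.75 (SE 0.15), ACTL6A with -0.47 and RUVBL1 with -0.43. EdgeR called 0 of the 15 and DESeq2 2, HCFC1 and CREBBP, against 5.64% of all tested genes.

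Corepressors that MXD proteins recruit through SIN3 were mixed, with 6 of 15 higher and 9 lower in the control and a median of -0.09. SAP30, a subunit of the SIN3 complex, was at a log2 fold change of 0.63 (SE 0.20) and the scaffold gene SIN3A at -0.59 (SE 0.23), or -0.91 with the recovered reads of control replicate 2. SAP130 and BRMS1 were at -0.47 and -0.43. An unadjusted p under 0.05 was reached by 3 of the 15, near the 19.2% of all tested genes, and edgeR and DESeq2 each called 0.

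Partners of MGA in PRC1.6 had a median of -0.13, and 8 of 9 were lower in the control. Only TFDP1, the dimer partner of E2F proteins, had an unadjusted p under 0.05 among the 9, a smaller share than the 19.2% of all tested genes, with a log2 fold change of -0.59 (SE 0.16). L3MBTL2, CBX3 and RYBP were at -0.47, -0.34 and 0.18. EdgeR called 0 of the 9 and DESeq2 1, TFDP1, against 5.64% of all tested genes. ZBTB17, which encodes the MYC partner MIZ1, had a log2 fold change of 0.40 (SE 0.16).

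Genes for the turnover and stability of MYC protein had a median of -0.20, 12 of 15 were lower in the control, and 5 had an unadjusted p under 0.05 (2 higher and 3 lower), against 19.2% of all tested genes. PIM1, a kinase that phosphorylates MYC, was the largest difference. It was at 26.2, 10.3 and 7.04 normalized CPM in the control and 1.78, 0.824 and 5.41 in the knockdown. The groups did not overlap, but control replicate 1 alone held most of the control sum. PIM1 had a log2 fold change of 2.44 (SE 0.70; edgeR quasi-likelihood, Benjamini-Hochberg adjusted p = 0.140), which was 1.70 without control replicate 1 and 3.46 without knockdown replicate 3. The ubiquitin ligase genes SKP2 and HUWE1 were at -0.60 and -0.51 and the phosphatase inhibitor gene SET at -0.56. EdgeR called 0 of the 15 and DESeq2 1, PIM1, against 5.64% of all tested genes.

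Of 4 neighbors of MYC in the genome, the lncRNA genes PVT1 and CASC11 were tested, with log2 fold changes of 0.26 (SE 0.34) and 0.72 (SE 0.56). PVT1 turned to -0.067 without control replicate 3, and CASC11 was at 1.42 without knockdown replicate 1. Both were low, PVT1 at 4.69 to 11.5 and CASC11 at 0.198 to 0.861 normalized CPM. POU5F1B had 0 counts in every library, and CCAT1 was not matched by symbol. CASC11 lies on the strand opposite to MYC and overlaps it, so its few counts are uncertain.

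Downstream genes were described last. Classical MYC-induced genes, mostly for ribosome assembly and growth, had a median log2 fold change of -0.40, 21 of 24 tested genes were lower in the control, and 8 had an unadjusted p under 0.05, all 8 lower in the control, as were 8.74% of all tested genes. Control replicate 3 went the other way in part, being the highest library in 6 of the 24. The share of all tested genes with that pattern is not given here. With the recovered reads of control replicate 2 the median of the list was -0.27. RRS1, a ribosome assembly factor gene, was at 19.5, 23.0 and 39.6 normalized CPM in the control and 46.7, 66.0 and 45.3 in the knockdown. Control replicate 3 lay nearest to the knockdown, and in its recovered reads control replicate 2 was at 45.9, within the knockdown range, for a log2 fold change of -0.60. By the count column RRS1 had a log2 fold change of -0.95 (SE 0.28; edgeR quasi-likelihood, Benjamini-Hochberg adjusted p = 0.143). NCL, CAD and BOP1 were at -0.74, -0.74 and -0.72, and CCND2 was not tested for low counts. EdgeR called 0 of the 24 and DESeq2 6, against 5.64% of all tested genes.

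Of 12 genes that MYC is known to repress, 10 were higher in the control, with a median of 1.06, and 6 had an unadjusted p under 0.05, all 6 higher in the control, as were 10.4% of all tested genes. The cell cycle inhibitor gene CDKN1C was at 46.3, 44.9 and 13.1 normalized CPM in the control and 12.2, 8.05 and 8.12 in the knockdown. Control replicates 1 and 2 were high and control replicate 3 lay close to the knockdown. In its recovered reads control replicate 2 was at 16.0. Its log2 fold change was 1.88 (SE 0.44; edgeR quasi-likelihood, Benjamini-Hochberg adjusted p = 0.117). CDKN1A, which encodes p21, and KLF6 were at 1.69 and 1.62 (1.26 and 1.99 with the recovered reads), and NDRG1, which is also a HIF target, at 3.44 (SE 1.03). EdgeR called 0 of the 12. With the recovered reads it called 2, against 10 of the 15190 genes then tested. The median of the list was then 0.82, with CDKN1C at 1.39 and NDRG1 at 2.99. DESeq2 called 5, against 5.64% of all tested genes.

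MXI1 was set beside the HIF targets because it is one of them. All 15 listed HIF targets were higher in the control, with a median log2 fold change of 1.31, and 11 had an unadjusted p under 0.05, all 11 higher in the control, as were 10.4% of all tested genes. EdgeR called 0 and DESeq2 8, against 5.64% of all tested genes. With the recovered reads of control replicate 2, 6 of the 15 had an unadjusted p under 0.05, against 3106 of the 15190 genes then tested. The median of the 15 was then 1.09. NDRG1 was at 837, 347 and 36.4 normalized CPM in the control and 17.7, 16.0 and 78.7 in the knockdown. As in MXI1, control replicates 1 and 2 were the highest libraries and knockdown replicate 3 was above control replicate 3. The log2 fold change of NDRG1 was 2.37 without control replicate 1 and 4.58 without knockdown replicate 3.

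The other HIF targets with large differences were ADM (log2 fold change 2.70, SE 0.56), EGLN3 (2.28, SE 0.59) and ANKRD37 (2.23, SE 0.51). Without control replicate 1 they were 1.79 for ADM, 1.62 for EGLN3 and 1.69 for ANKRD37. By the count column, control replicates 1 and 2 were the highest libraries in 13 of the 15 HIF targets, but with the recovered reads of control replicate 2 they were so in 4. In those reads control replicate 2 was at 34.6 normalized CPM for NDRG1, 11.1 for ADM, 16.7 for EGLN3 and 6.42 for ANKRD37, so the pattern depends on which column of that library is used. Control replicate 3 was the lowest control library in 13 of the 15 and was above each knockdown library in 6. The shares of all tested genes with these patterns are not given here. Whether oxygen supply differed between the cultures was not tested.

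**Figure D4:**
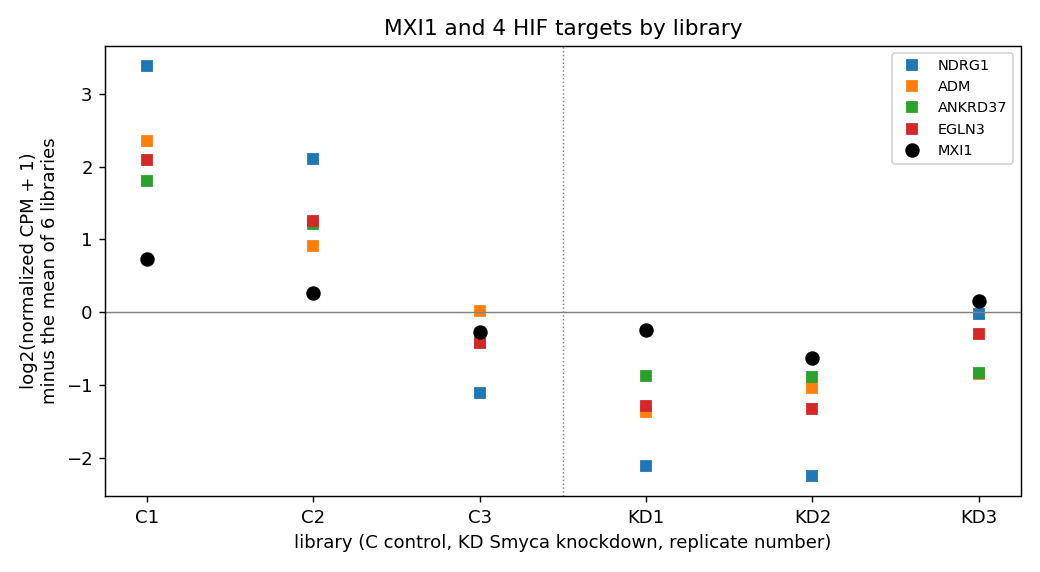
Log2(normalized CPM + 1) minus the mean of the 6 libraries (y axis) for MXI1 (black) and the 4 HIF targets with the largest differences, in each control (C) and Smyca knockdown (KD) library. Control replicates 1 and 2 lie above 0 in all 5 genes, control replicate 2 by its count column.

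Immediate-early genes, which respond to growth signals and handling within minutes, had a median log2 fold change of 1.91, and 15 of 15 were higher in the control. An unadjusted p under 0.05 was reached by 15 of 15, all higher in the control, as in 10.4% of all tested genes. The groups did not overlap in 15 of 15, against 24.8%. EdgeR called 3 (JUN, DUSP1 and ZFP36) and DESeq2 15, against 0.0265% and 5.64% of all tested genes. The edgeR count depended on single libraries. It was 0 without control replicate 1, 2 without control replicate 2 (JUN and ZFP36) and 12 without control replicate 3. It was 0 without any one of the knockdown replicates. Of all genes then tested, 0, 2 and 1628 (10.5%) were called without control replicate 1, 2 or 3. Without knockdown replicate 1, 2 or 3, 0, 0 and 2 of all genes were called. FOS was at 49.5, 47.1 and 123 normalized CPM in the control and 8.32, 5.64 and 8.25 in the knockdown. By the count columns, control replicate 3 was the highest library for FOS and in 8 of the 15 genes. The share of all tested genes with that pattern is not given here. In its recovered reads control replicate 2 was at 122 for FOS, close to control replicate 3. EdgeR then called 4 of the 15, FOS being added, against 10 of the 15190 genes then tested. FOS differed by 3.30 on the log2 scale (SE 0.40), by 2.70 without control replicate 3 and by 3.72 with the recovered reads. ZFP36 and DUSP1 were at 2.28 and 2.17. FOSB was at 2.26, which was 1.20 without control replicate 3 and 2.88 with the recovered reads of control replicate 2. The part of these differences in those of MXD1 and MXD3 was not tested.

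The genes whose pattern over the 6 libraries was most like that of MYC were DELE1, SLC4A11, UBALD1, SNHG8 and LGALS3, with Pearson's r from 0.972 to 0.982 among 9539 other genes with a mean of at least 10 normalized CPM. For MXI1 they were SBF2, SPG11, COG5, FAM234B and SPRY4, with r from 0.989 to 0.997. SBF2 was at 47.9, 34.4 and 25.0 normalized CPM in the control and 24.2, 19.3 and 33.7 in the knockdown. These correlations pick the highest of many genes over 6 libraries, use the count column of control replicate 2, and describe likeness only.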

How the data were processed

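RNA was sequenced from 3 control shRNA and 3 Smyca shRNA #1 libraries. The authors removed rRNA, made strand-specific libraries and mapped reads to hg38 with TopHat2 2.0.12. For each library the authors deposited raw read counts and FPKM values for 58302 genes. In 5 of 6 libraries FPKM followed the counts. For control replicate 2, reads were recovered from the FPKM column (100% whole within 0.02 reads, 16759253 in all).

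Symbols came from GENCODE release 44 (57532 matched). Counts were fitted in R 4.3.3 with edgeR 4.0.16 (TMM, filterByExpr, quasi-likelihood test, group only), with Benjamini-Hochberg adjustment over 15075 genes. The biological coefficient of variation was 25.2%. The code was tested on simulated data. Of 200 genes changed there by a log2 fold change of 1, it called 55.5%, and at 2 it called 99.5%. Alternatives were RLE factors, total counts, no filter beyond 1 count, at least 10 counts per library, DESeq2 1.42.0 on the same filtered genes, the replicate number as a block, each replicate left out, an adjusted p under 0.1, no gene length, and the recovered reads.

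All 10 network genes are named, and from each other list up to 4 tested genes with the largest absolute log2 fold change, with genes at 0 counts throughout where a list has 3 or fewer. Genes named outside this rule, among them CCND2, JUN and genes with motifs, were chosen after their values were seen. The 5 genes most like MYC and MXI1 were named by Pearson's r. The members and lists were chosen with earlier results of these data known. Leaving out each replicate and the recovered reads were also tried on the lists and their named genes, a choice made after seeing the data. Some marker results are not reported here.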

Additional observations from a re-analysis of the deposited data

How the results depend on the processing

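The number of network genes called was 0 in edgeR's quasi-likelihood test and also with RLE factors, total counts, at least 10 counts per library, the replicate block, an adjusted p under 0.1 and the reads recovered from the FPKM column. It was 2 (MXD1 and MXD3) with DESeq2's Wald test and 2 with no filter beyond 1 count. With each replicate left out it ranged from 0 to 2, the 2 coming without control replicate 3, when 1628 of all genes were called. The cause was not tested.

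The number with an unadjusted p under 0.05 was 3. It was 5 with no filter beyond 1 count, where MYCN and MXI1 joined. With each replicate left out it ranged from 2 (without control replicate 2) to 5 (without knockdown replicate 3). Of all tested genes, 2893 of 15075 had such a p, and 4019 of 30409 with no filter. They numbered 2115 of 15499 without control replicate 2 and 2986 of 15673 without knockdown replicate 3. All tested genes called numbered 4 in edgeR, 850 with DESeq2, 916 with no filter, 8 with total counts, 10 with the recovered reads, and 0 with the replicate block. They numbered 0, 2 and 1628 without control replicate 1, 2 or 3 and 0, 0 and 2 without knockdown replicate 1, 2 or 3.

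The replicate block gave 0 called network genes and 3 with an unadjusted p under 0.05. Same-numbered libraries deviated from their group means with correlations of 0.0607, 0.0842 and -0.0139. For differently numbered libraries these correlations ranged from -0.180 to 0.0802. With 3 libraries per group they cannot show whether the numbers pair the libraries.

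The sign of MYC turned with total counts (0.020) and with the recovered reads (0.13), and ranged from -0.19 to 0.10 with each replicate left out. MXD4 turned with RLE factors (-0.0097), no filter (-0.028), DESeq2 (-0.0097) and the recovered reads (-0.013), and ranged from -0.092 to 0.13 with each left out. MYCL ranged from -0.050 to 0.27 and MNT from -0.034 to 0.18 likewise. The cause was not tested. MAX, MXD1, MXD3, MXI1 and MGA had the same sign under each of 13 alternatives.

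The MYC share of the summed level, a mean of 68.2% per length, was 64.7% without the length and 69.8% with the recovered reads. Counts below about 10 per library, as in MYCN, limit what could be measured.

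Among the genes named from lists, tried after seeing the data, MLX (-0.028) ranged from -0.119 to 0.131 and PVT1 from -0.067 to 0.476 with each replicate left out. The cause was not tested. In edgeR's quasi-likelihood test 3 immediate-early genes were called, against 0 with the replicate block and 15 with no filter beyond 1 count. With no filter, 11 HIF targets, 6 MYC-induced and 6 MYC-repressed genes, 2 MYC coactivators and 1 turnover gene were also called. Of all genes then tested, 3.01% were called. Without control replicate 3, 12 HIF targets, 11 MYC-induced and 7 MYC-repressed genes, 2 MYC coactivators and 1 gene each of the corepressor, PRC1.6 and turnover lists were called, against 0 of each with all libraries, and 10.5% of all genes then tested.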

Other observations

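Among 10472 genes with a mean of at least 100 counts, CT45A1, a cancer/testis antigen gene on the X chromosome, was the only gene with 0 counts in more than 1 library. It was picked for this pattern after the values were seen. CT45A1 had 0, 0 and 261 counts in the control replicates and 0, 13 and 405 in the knockdown replicates. Reads recovered from control replicate 2's FPKM values gave 348 for this gene, where its count column gives 0. CT45A1 belongs to a family of near-identical copies, so the share of reads assigned to it is uncertain.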
